A study of Mus musculus with 10 samples.

Results

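Endothelial cells of the liver were followed through 10 genes, chosen by name, that were read out of RNA sequencing of whole mouse liver. The members are *Stab1*, *Stab2*, *Lyve1*, *Clec4g* and *Oit3*, which mark the sinusoidal endothelium, and *Pecam1*, *Kdr*, *Cdh5*, *Vwf* and *Cd34*, which mark endothelium in general or the capillary-type endothelium of larger vessels and of remodelled sinusoids. All 10 were found among the 24052 gene symbols counted. The livers came from 5 wild-type mice and 5 Ndrg3 LKO mice, with 1 library per liver, labelled C57BL/6 and with free access to food; by the methods the conditional allele had been backcrossed to C57BL/6N. Ndrg3 LKO mice carried *Ndrg3* alleles with exon 4 between loxP sites (*Ndrg3* f/f) and the Alb-Cre transgene, in which the albumin promoter drives Cre in hepatocytes, so that endothelial cells are not the cells the deletion was made in. The controls were wild-type littermates. The allele had earlier been passed through mice with Flp recombinase to remove its selection cassette. The mice were 8 to 10 weeks old by the methods and 10 to 12 weeks by a legend of the study, and male unless stated otherwise. Legends of the study give 4 Ndrg3 LKO livers for its metabolome and RNA results, against the 5 used here. Which liver was left out there is not stated. The comparison of the 2 groups addresses what loss of NDRG3 from hepatocytes changes in the liver, here in RNA of another cell type.

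Liver sinusoids are the capillaries between plates of hepatocytes, and their endothelium is unusual: it is perforated by open pores called fenestrae, has no organised basement membrane, and clears waste proteins from blood through scavenger receptors. *Stab1* and *Stab2* encode the scavenger receptors stabilin-1 and stabilin-2, *Lyve1* a hyaluronan-binding receptor shared with lymphatic vessels, and *Clec4g* a C-type lectin. *Oit3* encodes a secreted protein used as a marker of sinusoidal endothelium. *Pecam1* (CD31) and *Cdh5* (VE-cadherin) encode adhesion proteins of the junctions between endothelial cells, and *Kdr* encodes VEGF receptor 2. *Vwf* encodes the clotting factor von Willebrand factor, and *Cd34* a sialomucin of capillary endothelium. When sinusoids lose their fenestrae, a change called capillarization, they are known to gain *Cd34* and *Vwf* and to lose sinusoidal markers.

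The sequences in front of the members are shown to let the reader see the kind of promoter these genes have. They also show where AGGAAG, a form of the short core bound by ETS factors, falls in them. ETS factors are a family that includes ERG and FLI1 of endothelial cells. RefSeq promoters (GRCm38.p6 table, 250 bases before to 50 after a start site) were at hand for 5 of the 10 members, namely *Stab1*, *Stab2*, *Clec4g*, *Kdr* and *Cd34*, and each matched the mm9 genome exactly once. The letters AGGAAG, searched on both strands, stood in 4 of these 5, all but *Kdr*, and in 35.4% of the 32851 promoters of the table. Shorter or other forms of the ETS core were not searched and are not marked, so a promoter without AGGAAG may still hold one. The letters AGATAA, a form of the core bound by the factor GATA4 of sinusoidal endothelium, stood in 0 of the 5 and in 11.2% of all promoters. Other forms of the GATA core were not searched. The 250 bases before the start are printed 5′ to 3′. They are those of the sinusoidal gene with most AGGAAG matches, a sinusoidal gene with 1 match and the member with no match. Capitals mark AGGAAG or its reverse complement. *Clec4g* lies at chr8:3720652-3720901 of mm9 on the minus strand and holds 3 matches, of which 2 share bases. *Stab2* lies at chr10:86470688-86470937 on the minus strand, and *Kdr* at chr5:76374481-76374730 on the minus strand.
Clec4g: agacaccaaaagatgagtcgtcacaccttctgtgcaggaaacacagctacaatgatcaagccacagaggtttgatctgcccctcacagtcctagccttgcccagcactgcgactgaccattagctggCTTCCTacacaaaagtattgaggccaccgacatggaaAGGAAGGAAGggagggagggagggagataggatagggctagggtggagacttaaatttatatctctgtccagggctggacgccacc
Stab2: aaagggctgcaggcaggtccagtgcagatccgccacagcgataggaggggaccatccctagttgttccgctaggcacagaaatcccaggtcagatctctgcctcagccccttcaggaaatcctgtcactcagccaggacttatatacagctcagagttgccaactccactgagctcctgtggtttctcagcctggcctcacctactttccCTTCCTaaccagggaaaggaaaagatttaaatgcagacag
Kdr: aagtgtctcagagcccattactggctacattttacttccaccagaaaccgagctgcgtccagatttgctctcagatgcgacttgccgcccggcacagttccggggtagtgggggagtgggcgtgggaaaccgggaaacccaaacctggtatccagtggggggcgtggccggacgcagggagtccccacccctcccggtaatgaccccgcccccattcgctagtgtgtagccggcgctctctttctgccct
These matches describe the letters only, and binding was not measured.

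Counts on genes ranged from 20872262 to 24747870 per wild-type liver and from 23474693 to 30450057 per LKO liver, and 3 counts, taken as the smallest signal, correspond to 0.138 to 0.179 CPM in wild-type and 0.0728 to 0.142 CPM in LKO livers on the TMM scale used below. CPM is the count scaled to a common library size. This floor covers counting error only. The targeted gene *Ndrg3* was lower in every LKO liver than in every wild-type liver (log2 fold change -1.20, SE 0.13, adjusted p = 3.87e-05, edgeR's quasi-likelihood test). LKO replicate 5 stood apart from the other LKO livers. The 20 most abundant genes accounted for 26.2% to 28.0% of all counts in the wild-type group and for 16.3% to 17.3% in LKO replicates 1 to 4, but 26.6% in LKO replicate 5. Its summed hepatocyte markers, at 149654 CPM, were within the wild-type range of 144284 to 187818. Most of that sum was *Alb*, at 108020 CPM. Taken singly, *Alb*, *Ttr*, *Serpina1c*, *Tat* and *Cps1* were within the wild-type range in this liver. *Apoa1*, *Apob*, *Hnf4a* and *Cyp2e1* were below every wild-type liver in it, as in the other LKO livers. Values without this liver are given for some of the results that turn on it. Levels below are CPM after TMM scaling, in which library sizes are adjusted so that most genes do not differ, and fold changes are LKO relative to wild-type. Adjusted p-values are from edgeR over the 11208 genes that reached 1 CPM in 5 or more livers. Permutation p-values are 2-sided and exact over all splits of the livers into 5 and 5, and cannot be smaller than 0.00794. 

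Of the 10 members, 8 were higher in LKO livers, none was lower and 2, *Stab2* and *Vwf*, did not pass; without LKO replicate 5, 7 were higher. Among all genes tested, 25.6% were higher and 23% were lower, 48.6% in all. For 5 of the 10 members every LKO liver was above every wild-type liver, against 15.6% of all genes tested. The median log2 fold change of the members was 1.20, and that of all genes 0.03. All 10 members passed the filter on low counts, but for *Lyve1* 4 and for *Cd34* 2 of the wild-type livers reached 1 CPM before scaling, against all 5 LKO livers. In whole liver, changes in endothelial cell number, in RNA per endothelial cell and in the RNA of other liver cells cannot be told apart. The plot of each liver's levels shows the sinusoidal members above and the general and capillarized members below.

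**Figure D1:**
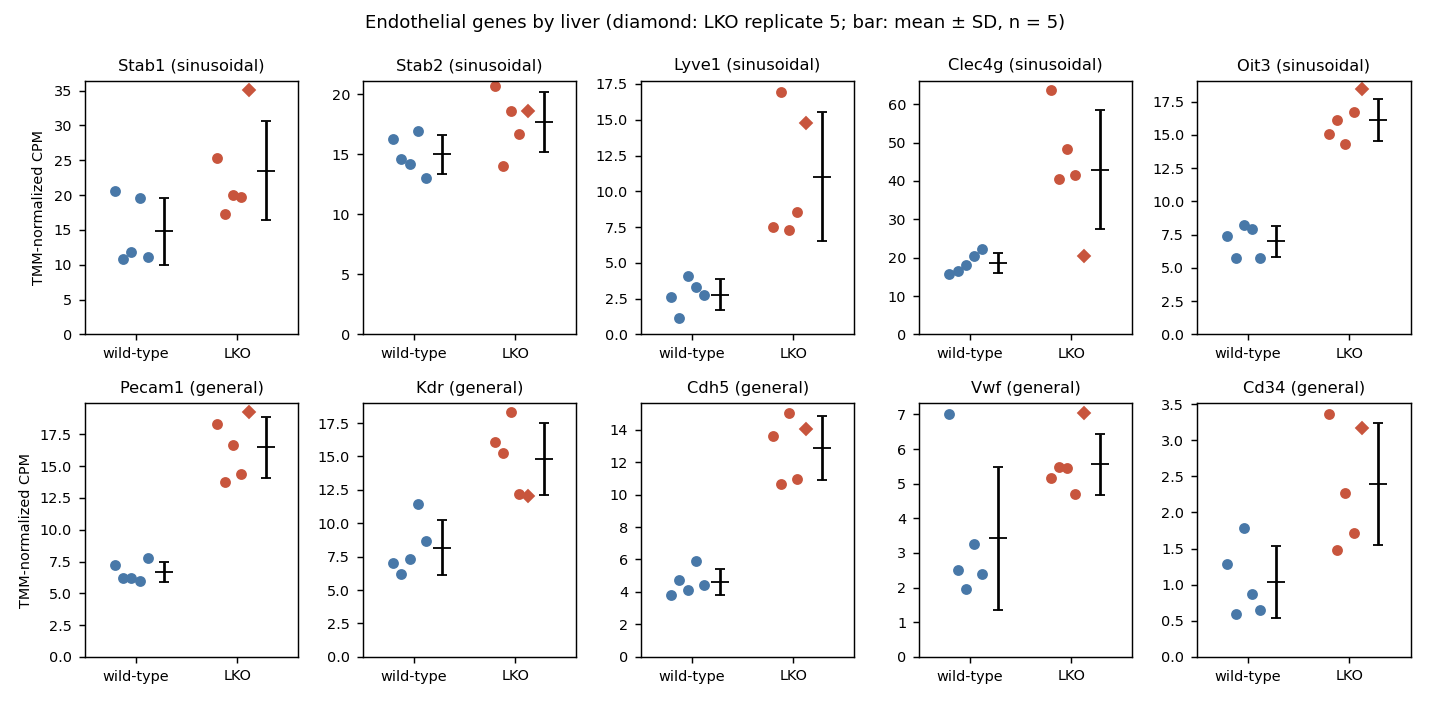
Level of each member in each of the 10 livers, in TMM-scaled CPM on axes that start at 0; circles are livers, diamonds are LKO replicate 5, and bars are the group mean ± SD (n = 5). *Lyve1*, *Oit3*, *Pecam1*, *Kdr* and *Cdh5* do not overlap between groups, and LKO replicate 5 lies within the wild-type range for *Clec4g*.

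*Lyve1* had the largest fold change of the members. In mm9 it lies on the minus strand of chromosome 7 from 117994121 to 118006467 and has 6 exons. Its level was 2.59, 1.13, 4.07, 3.31 and 2.74 CPM in wild-type replicates 1 to 5, and 7.49, 16.9, 7.32, 8.59 and 14.8 CPM in LKO replicates 1 to 5. The lowest LKO liver was above the highest wild-type liver, and LKO replicates 2 and 5 were highest. The mean rose from 2.77 ± 1.09 to 11 ± 4.50 CPM (SD, n = 5 each), a log2 fold change of 1.99 (SE 0.34, adjusted p = 7.72e-04, exact permutation p = 0.00794).

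*Clec4g* had the highest level of the members in LKO livers. It lies on the minus strand of chromosome 8 from 3707064 to 3720651, with 9 exons. The wild-type livers held 15.8, 16.6, 18, 20.3 and 22.2 CPM, and the LKO livers 63.7, 40.6, 48.4, 41.6 and 20.5 CPM. The first 4 of these LKO values were above all wild-type values, and that of LKO replicate 5 fell between wild-type replicates 4 and 5. The mean rose from 18.6 ± 2.65 to 43.0 ± 15.6 CPM (SD, n = 5 each), a log2 fold change of 1.21 (SE 0.24, adjusted p = 0.00181, exact permutation p = 0.0159). Without LKO replicate 5 it was 1.37 (adjusted p = 2.84e-05).

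*Oit3* lies on the minus strand of chromosome 10 from 58885706 to 58904526, with 9 exons. It was at 7.36, 5.72, 8.20, 7.91 and 5.78 CPM in wild-type livers and at 15.1, 16.1, 14.3, 16.8 and 18.4 CPM in LKO livers. The groups did not overlap. The log2 fold change was 1.20 (SE 0.15, adjusted p = 8.51e-05, exact permutation p = 0.00794), from a mean of 7.0 ± 1.17 to one of 16.1 ± 1.58 CPM (SD, n = 5 each).

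The stabilins moved least among the sinusoidal members. *Stab1*, on the minus strand of chromosome 14 from 31952199 to 31981827 with 69 exons, was at 20.6, 10.8, 11.9, 19.6 and 11.1 CPM in wild-type livers and at 25.3, 17.4, 20.1, 19.7 and 35.1 CPM in LKO livers. The groups overlapped, with 2 LKO livers above all wild-type livers. It rose from 14.8 ± 4.85 to 23.5 ± 7.10 CPM (SD, n = 5 each), with a log2 fold change of 0.66 (SE 0.25, adjusted p = 0.0406), while the exact permutation p was 0.0635. The call was lost without wild-type replicate 2 (adjusted p = 0.103), 3 (0.0971) or 5 (0.10), without LKO replicate 1 (0.0767) or 5 (0.0881), and without the filter on low counts (0.0511). *Stab1* overlaps *Nt5dc2* on the opposite strand, which was at 5.30 CPM in wild-type and 3.67 CPM in LKO livers. Because the strand setting of the counting is not given in the sources used here, reads of the overlap cannot be assigned to one of the 2 genes.

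*Stab2*, on the minus strand of chromosome 10 from 86303943 to 86470770 with 69 exons, was the steadiest member. It held 16.2, 14.6, 14.2, 16.9 and 13 CPM in wild-type livers and 20.7, 14.0, 18.6, 16.6 and 18.6 CPM in LKO livers. The groups overlapped, with LKO replicate 2 among the lower wild-type livers. The means were 15 ± 1.6 and 17.7 ± 2.51 CPM (SD, n = 5 each), and the log2 fold change of 0.24 (SE 0.13) did not pass (adjusted p = 0.158, exact permutation p = 0.0952). With library size as the only scaling it was 0.75 (adjusted p = 0.00186). Predicted transcripts are annotated opposite *Stab2* that were not among the counted symbols.

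Among the general endothelial members, *Cdh5* had the largest fold change. It lies on the plus strand of chromosome 8 from 106625525 to 106668402, with 12 exons. Its level was 3.82, 4.74, 4.13, 5.89 and 4.41 CPM in wild-type livers and 13.6, 10.7, 15.1, 11 and 14.1 CPM in LKO livers. The groups were well apart, with no liver between 5.89 and 10.7 CPM. *Cdh5* rose from 4.6 ± 0.798 to 12.9 ± 1.95 CPM (SD, n = 5 each), a log2 fold change of 1.48 (SE 0.17, adjusted p = 4.70e-05, exact permutation p = 0.00794).

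*Pecam1*, the other junction gene, lies on the minus strand of chromosome 11 from 106515531 to 106611942, with 16 exons. The wild-type livers were at 7.20, 6.16, 6.19, 5.94 and 7.75 CPM, and the LKO livers at 18.3, 13.7, 16.6, 14.4 and 19.3 CPM. Again the groups did not overlap. The mean rose from 6.65 ± 0.785 to 16.5 ± 2.39 CPM (SD, n = 5 each), a log2 fold change of 1.31 (SE 0.14, adjusted p = 4.47e-05, exact permutation p = 0.00794).

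*Kdr*, the receptor for VEGF-A, lies on the minus strand of chromosome 5 from 76328852 to 76374483, with 31 exons. Its level was 7.03, 6.21, 7.36, 11.5 and 8.70 CPM in wild-type livers and 16.1, 15.3, 18.4, 12.2 and 12 CPM in LKO livers. The groups did not overlap, although wild-type replicate 4 came close to LKO replicates 4 and 5. *Kdr* rose from 8.15 ± 2.05 to 14.8 ± 2.7 CPM (SD, n = 5 each), a log2 fold change of 0.86 (SE 0.19, adjusted p = 0.00325, exact permutation p = 0.00794).

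The 2 members known to be gained in capillarization had the lowest levels per length of exon. *Cd34*, on the plus strand of chromosome 1 from 196765015 to 196787486 with 8 exons, was at 1.29, 0.587, 1.78, 0.874 and 0.656 CPM in wild-type livers and at 3.37, 1.48, 2.27, 1.71 and 3.16 CPM in LKO livers. The groups overlapped only through wild-type replicate 3, which was above 2 of the LKO livers. The log2 fold change was 1.20 (SE 0.35, adjusted p = 0.0139, exact permutation p = 0.0238), from a mean of 1.04 ± 0.50 to one of 2.40 ± 0.845 CPM (SD, n = 5 each). The wild-type values rest on 11 to 32 counts per liver and the LKO values on 60 to 117.

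*Vwf* lies on the plus strand of chromosome 6 from 125496792 to 125636697 and has 52 exons. It was at 7.03, 2.49, 1.95, 3.27 and 2.38 CPM in wild-type livers and at 5.15, 5.49, 5.44, 4.71 and 7.03 CPM in LKO livers. Wild-type replicate 1 was as high as the highest LKO liver, and the other 4 wild-type livers were below all LKO livers. The means were 3.42 ± 2.07 and 5.56 ± 0.878 CPM (SD, n = 5 each), and the log2 fold change of 0.70 (SE 0.32) did not pass (adjusted p = 0.0849, exact permutation p = 0.0397). Without wild-type replicate 1 it was 1.11 (adjusted p = 0.00234).

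**Figure D2:**
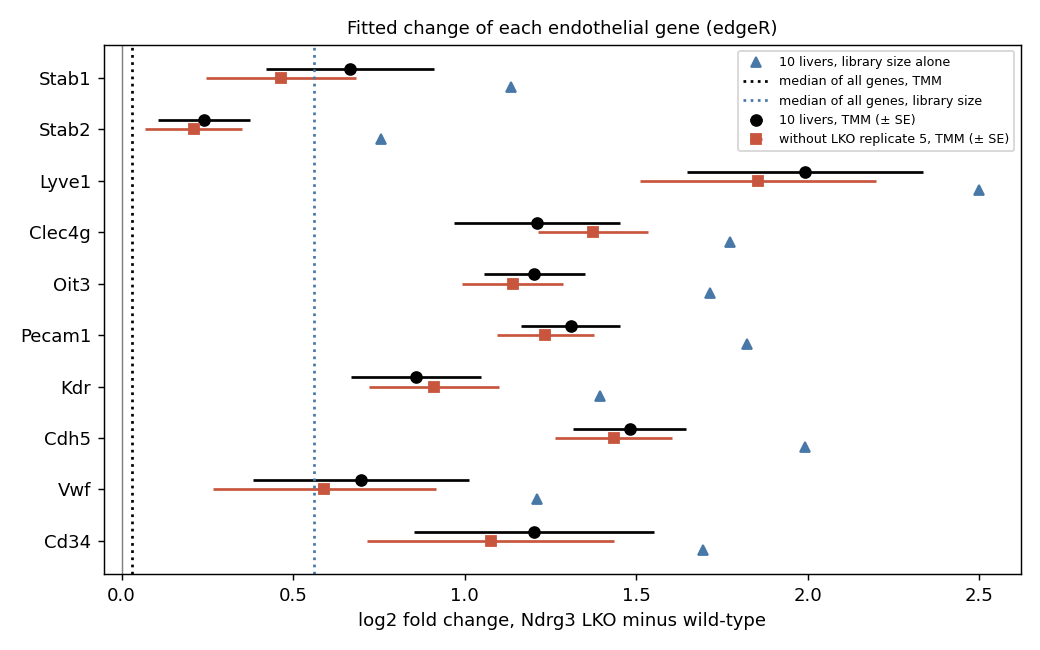
Log2 fold change of each member by edgeR, LKO relative to wild-type: circles with SE for all 10 livers, squares with SE without LKO replicate 5, and triangles with library size alone; dotted lines are the medians of all genes tested, at 0.03 with TMM and 0.56 with library size alone. All 10 circles lie above 0, from 0.24 for *Stab2* to 1.99 for *Lyve1*, and the squares lie within 1 SE of them.

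The comparison the gene groups were chosen for is between sinusoidal members and general and capillarized members. Of each group, 4 of 5 were higher in LKO livers. The median log2 fold change was 1.20 in both, with a gap of 0.0016, and members are not replicates, so no test was made. Within each liver, the mean log2(CPM + 1) of the sinusoidal members exceeded that of the general members by 1.09 ± 0.116 in wild-type and by 1.09 ± 0.149 in LKO livers (SD, n = 5 each), so that the balance differed by less than the spread between livers. The gap of medians moved with the livers and the tool, from -0.136 without wild-type replicate 1 to 0.295 with limma on log2(CPM + 1). The spread within the sinusoidal group, from 0.24 to 1.99, was wider than the spread within the general group, from 0.70 to 1.48.

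Ratios of counts within a liver need no scaling between libraries and moved unequally too; they are given as a description. Counts of *Pecam1* were 0.450 ± 0.0898 of those of *Stab2* in wild-type livers and 0.932 ± 0.0734 in LKO livers, with no overlap. Counts of *Cdh5* were 0.308 ± 0.0459 and 0.729 ± 0.0680 of those of *Stab2*, also with no overlap. *Lyve1* went from 0.186 ± 0.0768 to 0.655 ± 0.353 of *Stab2* without overlap. The other ratios taken overlapped between the groups. *Clec4g* went from 1.26 ± 0.274 to 2.44 ± 0.779 of *Stab2*, and *Cd34* from 0.0696 ± 0.0347 to 0.133 ± 0.0319. *Cdh5* went from 0.578 ± 0.106 to 0.887 ± 0.174 of *Kdr*. *Stab2* had the smallest fold change of the members, so ratios of other members to it rise with their own fold changes. *Clec4g* relative to *Oit3* was at 2.73 ± 0.689 and 2.75 ± 1.16 in the 2 groups (SD, n = 5), but at 1.11 in LKO replicate 5, the lowest of all livers. *Stab1* relative to *Stab2* was 1.89 in the same liver, the highest of all, against 0.742 to 1.27 in the other 9.

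The choice of scaling bears on how far the members rose. With library size alone the median of all genes moved from 0.03 to 0.56 on the log2 scale, and 85.3% of the genes called were higher in LKO livers, against 52.6% with TMM. All 10 members were then called higher. Relative to the median of all genes, the members' log2 fold changes were nearly the same under both scalings, for example 1.96 and 1.94 for *Lyve1*, 1.28 and 1.26 for *Pecam1*, and 0.21 and 0.19 for *Stab2*. This follows from the measure, because a change of scaling shifts all genes by nearly the same amount, and it is no check of the scaling.

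Levels can be compared between genes only per length of exon, and the order given here is of CPM per kilobase of annotated exons. In wild-type livers *Clec4g* came first, at 7.55 ± 1.08, followed by *Oit3* at 2.51 ± 0.421, *Stab2* at 1.71 ± 0.182, *Pecam1* at 1.54 ± 0.182 and *Stab1* at 1.44 ± 0.472 CPM per kilobase. *Cdh5* at 1.15 ± 0.20, *Kdr* at 1.12 ± 0.282 and *Lyve1* at 1.06 ± 0.417 were close together. *Cd34* at 0.396 ± 0.191 and *Vwf* at 0.213 ± 0.129 were the lowest (SD, n = 5 throughout). *Clec4g* was above *Oit3*, and *Oit3* above *Stab2*, in every wild-type liver. All other neighbours in this order overlapped in their ranges.

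In LKO livers the order of levels was *Clec4g* at 17.5 ± 6.33, *Oit3* at 5.79 ± 0.566, *Lyve1* at 4.23 ± 1.73, *Pecam1* at 3.82 ± 0.555, *Cdh5* at 3.23 ± 0.489, *Stab1* at 2.29 ± 0.690, *Kdr* at 2.03 ± 0.371 and *Stab2* at 2.02 ± 0.286 CPM per kilobase. *Cd34* at 0.915 ± 0.322 and *Vwf* at 0.346 ± 0.0547 remained last. *Lyve1* thus stood at rank 8 of the members in wild-type and at rank 3 in LKO livers, and *Stab2* at rank 3 and rank 8. The ranges of neighbours were apart for *Clec4g* and *Oit3*, for *Stab2* and *Cd34* and for *Cd34* and *Vwf*, and overlapped for the rest.

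**Figure D3:**
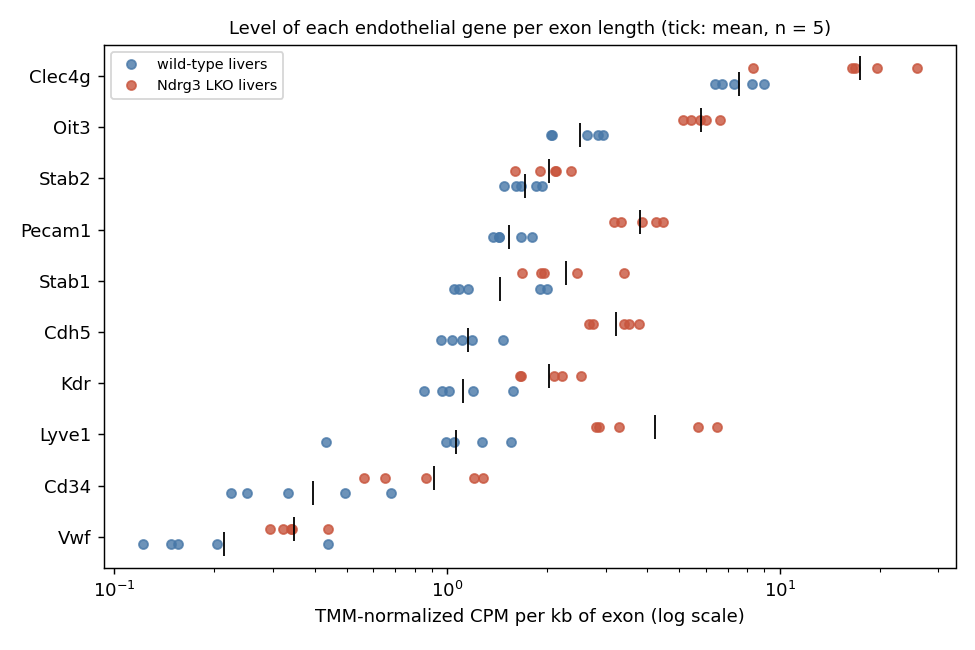
Level of each member in CPM per kilobase of annotated exons (log axis), wild-type beside LKO livers; points are livers and ticks the group means (n = 5). *Clec4g* is highest in both groups, *Vwf* is lowest in both, and *Lyve1* moves from rank 8 to rank 3.

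The genes that varied most like the sinusoidal members from liver to liver, after the group means had been taken out, were *Gpr116*, *Tmem129*, *Zfp606*, *Zfp868* and *Btbd3*. Their deviations correlated with those of the mean of the 5 sinusoidal members with r = 0.962, 0.951, 0.935, 0.93 and 0.927 over the 10 livers. The livers share their libraries and scaling factors in such a measure, and it is a description. *Gpr116* (also named Adgrf5), an adhesion receptor of endothelium, was itself higher in LKO livers, at 10.6 ± 2.61 and 18.3 ± 1.63 CPM (SD, n = 5 each; log2 fold change 0.78, adjusted p = 0.00345 by edgeR). *Tmem129* was higher by 0.37 on the log2 scale (adjusted p = 0.0172; 0.0598 without wild-type replicate 2 and 0.0519 without 5), *Zfp606* was lower (log2 fold change -0.87, adjusted p = 0.00196), and so was *Zfp868* (-1.11, adjusted p = 0.00442). *Btbd3* did not pass (0.40, adjusted p = 0.0772). Of the members, *Oit3* had r = 0.744 and *Stab1* 0.707 with a mean they are part of, *Kdr* 0.456 and *Vwf* 0.37, *Cdh5* 0.193 and *Pecam1* 0.128, and *Clec4g*, although in the mean, -0.00649.

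Other genes of liver endothelium were looked at from lists that were fixed with earlier results of these data known. Of 12 other sinusoidal genes, all tested, 11 were higher, none was lower and *Maf*, a transcription factor, did not pass (log2 fold change 0.30, adjusted p = 0.102). Their median log2 fold change was 0.93, against 0.03 over all genes tested, of which 25.6% were higher and 23% lower. *Tspan7*, a tetraspanin, rose from 7.16 ± 1.06 to 20.5 ± 5.68 CPM (SD, n = 5 each; log2 fold change 1.52, adjusted p = 1.27e-04). *Flt4*, VEGF receptor 3, rose from 5.69 ± 0.351 to 13.5 ± 2.99 CPM (1.24, adjusted p = 1.65e-04). *Plxnc1*, a semaphorin receptor, rose by 1.46 (adjusted p = 0.00161). In LKO replicate 5, *Plxnc1* stood at 5.15 CPM, within the wild-type range of 3.33 to 6.17, while the other 4 LKO livers held 11.8 to 17.0 CPM.

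Of 26 other pan-endothelial genes, 23 were tested, of which 21 were higher, none was lower and 2, *Cldn5* and *Arhgef15*, did not pass. Of the 23, 7 (*Emcn*, *Erg*, *Sox18*, *Nos3*, *Icam2*, *Myct1* and *Ecscr*, all higher) reached 1 CPM in fewer than 5 wild-type livers and passed the filter through the LKO livers; of the 12 with a mean of at least 5 CPM over all livers, 12 were higher. The median log2 fold change was 0.87, and 25.6% of all genes tested were higher. Among those with a mean of at least 1 CPM in both groups, the largest log2 fold changes were those of *Sox18*, a transcription factor of endothelium (1.59, SE 0.35, adjusted p = 0.00303), of *Ramp2*, which pairs with the adrenomedullin receptor (1.57, SE 0.24, adjusted p = 3.23e-04), and of *Tek*, the angiopoietin receptor TIE2 (1.40, SE 0.21, adjusted p = 2.79e-04). The summed level of all 26 genes of the list was 123 to 164 CPM in wild-type livers and 259 to 294 CPM in LKO livers, and so did not overlap. *Sox17*, *Sox7* and *Tal1* were below the filter.

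Of 18 other genes of capillary and large-vessel endothelium, only 9 were tested, and 7 of these were higher, none was lower and 2, *Cav1* and *Col4a1*, did not pass. *Mgp* and *Lama4* passed the filter through the LKO livers, with fewer than 5 wild-type livers at 1 CPM. The median log2 fold change was 0.74, and 25.6% of all genes tested were higher. *Selp*, the adhesion receptor P-selectin, was below the filter and lay the other way, at 0.948 to 1.13 CPM in wild-type and 0.317 to 0.722 CPM in LKO livers (17 to 22 and 11 to 28 counts), but the groups overlapped before TMM scaling, at 0.785 to 0.910 and 0.378 to 0.950 CPM. *Col4a2*, a chain of basement membrane collagen, rose from 4.73 ± 1.27 to 11.4 ± 5.17 CPM (SD, n = 5 each; log2 fold change 1.26, adjusted p = 0.00425). *Hspg2*, the basement membrane proteoglycan perlecan, rose by 1.08 (adjusted p = 0.00237) and *Mgp*, matrix Gla protein, by 1.15 (adjusted p = 0.0311). Which liver cells made these matrix RNAs cannot be told from whole liver. Without LKO replicate 5, 5 genes of this list were higher, and *Mgp* no longer passed (0.84, adjusted p = 0.067), as was so without LKO replicate 1 (0.0681) or any of wild-type replicates 2 to 5 (0.0561 to 0.0644). The summed level was 55.4 to 75.6 CPM in wild-type and 74.1 to 188 CPM in LKO livers, the highest in LKO replicate 5.

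**Figure D4:**
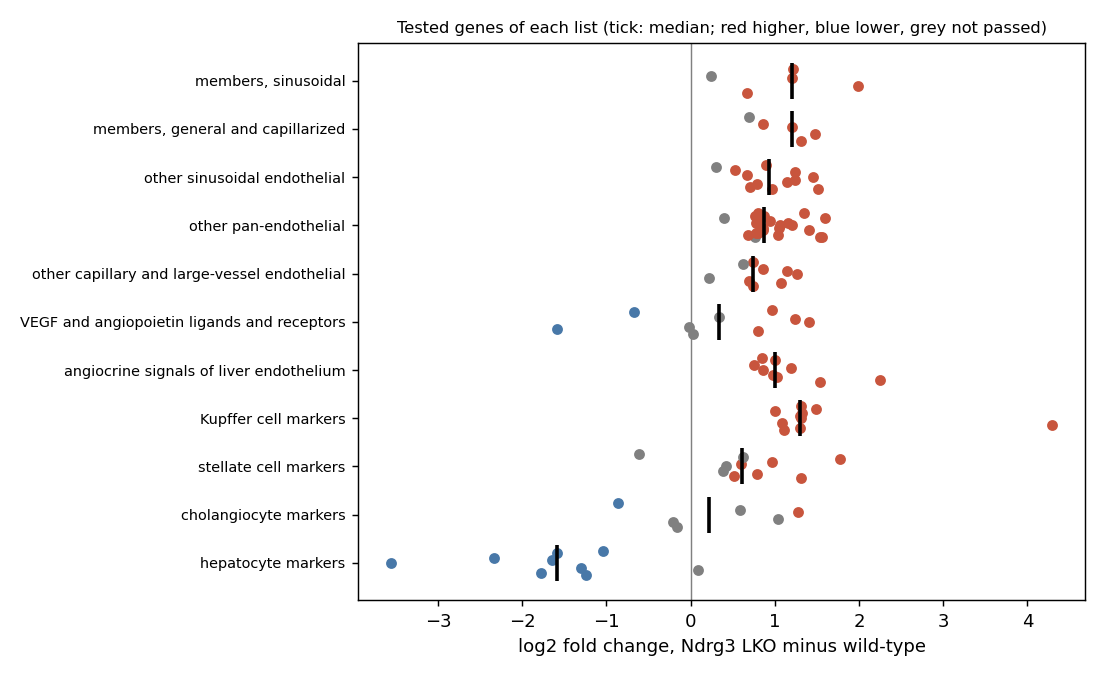
Log2 fold changes of the tested genes of each list, LKO relative to wild-type (edgeR, n = 5 livers per group); points are genes, coloured by call, and black ticks are medians. The endothelial lists lie mostly above 0, as do the Kupffer cell markers (median 1.30), and the hepatocyte markers lie below 0 (median -1.58).

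VEGF and angiopoietin signals keep endothelial cells alive and set their growth, with ligands made in part by hepatocytes and receptors on endothelium. Of the 13 ligands and receptors listed, 9 were tested, 4 were higher, 2 were lower and 3 did not pass, against 25.6% higher and 23% lower over all genes. The 3 were the VEGF ligands tested. *Flt4*, *Tek* and *Tie1* belong to 2 of the lists. *Vegfa* was at 60.3 to 121 CPM in wild-type and at 71.7 to 106 CPM in LKO livers, the latter range inside the former (log2 fold change 0.03, SE 0.24, adjusted p = 0.925). *Vegfb*, at 11.5 ± 1.08 and 14.5 ± 3.14 CPM, did not pass either (0.33, adjusted p = 0.108; 0.0444 without LKO replicate 3; 0.83 with library size alone, adjusted p = 7.65e-04), nor did *Vegfc*, at 2.36 ± 0.386 and 2.35 ± 0.507 CPM (SD, n = 5 each; -0.02, adjusted p = 0.955). The signs of *Vegfa* and *Vegfc* turned under some alternatives, *Vegfc* passing at 0.49 with library size alone (adjusted p = 0.0406).

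Besides *Kdr* and *Flt4*, *Flt1*, VEGF receptor 1, rose from 1.91 ± 0.463 to 3.73 ± 0.704 CPM (SD, n = 5 each; log2 fold change 0.96, adjusted p = 0.00408). *Tek* rose from 2.85 ± 0.778 to 7.5 ± 0.713 CPM and *Tie1*, its co-receptor, from 6.68 ± 0.883 to 11.6 ± 2.47 CPM (SD, n = 5 each), by 1.40 and 0.80 on the log2 scale (adjusted p = 2.79e-04 and 0.00236). In *Flt1*, *Flt4*, *Tek* and *Tie1* the groups did not overlap.

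The neuropilins, co-receptors for VEGF and semaphorins that other liver cells also make, went the other way. *Nrp1* was at 46.0, 134, 42.7, 56.8 and 131 CPM in wild-type livers and at 37.4, 21.2, 28.6, 31.1 and 18.6 CPM in LKO livers. Every LKO liver was below every wild-type liver, and wild-type replicates 2 and 5 stood far above the other 3. Its log2 fold change was -1.59 (SE 0.35, adjusted p = 0.00332), and -1.03 with library size alone (adjusted p = 0.0247). *Nrp2* was at 7.04 ± 1.20 and 4.40 ± 0.562 CPM (SD, n = 5 each; -0.67, adjusted p = 0.00588), but its call was lost with library size alone (-0.13, adjusted p = 0.604). *Figf* (VEGF-D), *Pgf*, *Angpt1* and *Angpt2* were below the filter.

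Angiocrine signals are factors that endothelium sends to its neighbours, such as Wnt ligands that set hepatocyte zonation. Of the 10 listed, 9 were tested, and all 9 were higher, with a median log2 fold change of 1.01, against 25.6% higher over all genes. Of the 9, 5 (*Bmp6*, *Hgf*, *Dll4*, *Efnb2* and *Thbd*) reached 1 CPM in fewer than 5 wild-type livers and passed the filter through the LKO livers. Only 2 had a mean of at least 5 CPM over all livers, and these 2 were higher. *Wnt2* was at 1.35, 1.47, 1.62, 1.66 and 2.15 CPM in wild-type livers and at 6.74, 4.78, 4.87, 6.16 and 1.32 CPM in LKO livers. LKO replicate 5 was thus the lowest of all 10 livers for *Wnt2*, and the other LKO livers were above all wild-type livers (log2 fold change 1.54, adjusted p = 0.00412; 1.76 without that liver, adjusted p = 2.50e-05). *Rspo3*, an enhancer of Wnt signals, rose by 0.75 (adjusted p = 0.0112). *Wnt9b* was below the filter, at 0.440 to 0.920 CPM in wild-type and 0.661 to 1.73 CPM in LKO livers. Without LKO replicate 5 it passed the filter and was higher too (log2 fold change 1.03, adjusted p = 0.0079).

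*Thbd*, the anticoagulant receptor thrombomodulin, is a receptor rather than a sent factor, and had the largest fold change of the list. It was at 1.91, 1.27, 1.17, 1.66 and 1.79 CPM in wild-type livers and at 6.68, 9.59, 11, 6.68 and 2.97 CPM in LKO livers. The groups did not overlap, with LKO replicate 5 the lowest LKO liver (log2 fold change 2.25, SE 0.32, adjusted p = 2.35e-04). *Hgf*, hepatocyte growth factor, which stellate cells also make, was at 1.54 ± 0.329 and 3.48 ± 1.84 CPM (SD, n = 5 each; 1.19, adjusted p = 0.0187), with LKO replicate 5 at 1.23 CPM. It lost its call with the replicate number as a block (adjusted p = 0.0849).

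The other angiocrine genes changed by about 1 on the log2 scale or less. *Bmp2*, which drives hepcidin in hepatocytes, rose from 5.06 ± 1.31 to 9.92 ± 2.28 CPM (SD, n = 5 each; 0.97, adjusted p = 0.00337). *Bmp6*, which acts with it, was higher by 0.85 (adjusted p = 0.0412), a call lost in 10 of 16 alternatives, among them those without wild-type replicate 1, 2, 3 or 5 or LKO replicate 1, 2, 3 or 4 (adjusted p = 0.0558 to 0.0974). The Notch ligand *Dll4* (1.02, adjusted p = 0.0257), the ephrin *Efnb2* (1.01, adjusted p = 0.0162) and *Igfbp7*, an insulin-like growth factor binding protein (0.86, adjusted p = 0.0015), were higher too. With the replicate block the call of *Efnb2* was lost (adjusted p = 0.0631). *Dll4* was at 5.95 CPM in LKO replicate 5, without which its log2 fold change was 0.63 (adjusted p = 0.0457), and its call was lost without wild-type replicate 1 (adjusted p = 0.0684) or 2 (0.0665).

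**Figure D5:**
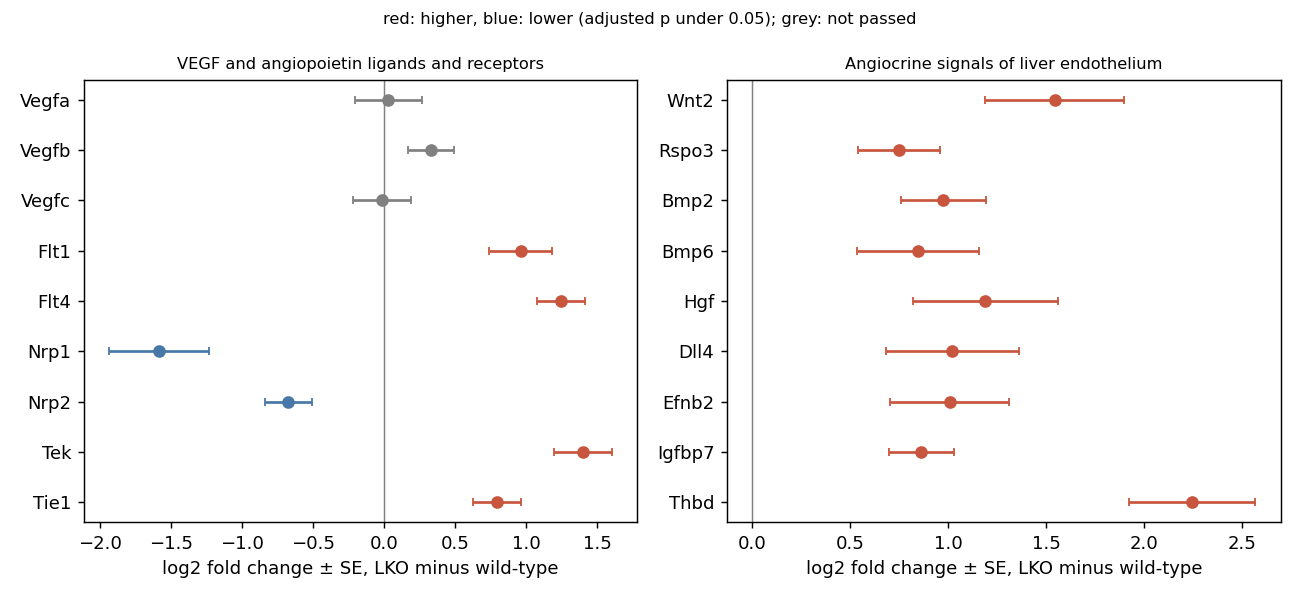
Log2 fold change ± SE of the tested VEGF and angiopoietin ligands and receptors and of the tested angiocrine signals, LKO relative to wild-type (edgeR, n = 5 livers per group); points are coloured by call. The VEGF ligands did not pass. *Flt1*, *Flt4*, *Tek* and *Tie1* lie above 0, and *Nrp1* (-1.59) and *Nrp2* (-0.67) lie below 0. All 9 tested genes of the angiocrine list lie above 0, with the receptor *Thbd* (2.25) the farthest.

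Markers of the other cells of the liver moved as well, and their part in the members' result was not tested. Over all genes tested, 25.6% were higher and 23% lower. All 10 Kupffer cell markers were higher, with summed levels of 131 to 340 CPM in wild-type and 276 to 884 CPM in LKO livers. Of 10 stellate cell markers 6 were higher and 4 did not pass, with sums of 205 to 304 and 349 to 494 CPM. Of 8 cholangiocyte markers 6 were tested, with *Spp1* higher and *Sox9* lower (49.9 to 81.0 and 57.0 to 229 CPM). Of 10 hepatocyte markers 9 were tested, and 8 were lower and *Cps1* did not pass (sums of 144284 to 187818 and 35412 to 149654 CPM). The hepatocyte marker *Ass1* was below the filter, at 3 to 37 counts per liver, and the cause was not tested. *Vwf* and *Pecam1* are also made by platelets and megakaryocytes. Of their 7 markers 2 were tested, with sums of 7.36 to 8.92 and 11.4 to 23.8 CPM. *Itgb3* was higher and *Itga2b* did not pass, at means of 3.37 CPM in wild-type and 4.34 CPM in LKO livers. The other 5 were below the filter, among them *Pf4* at means of 0.503 and 0.896 CPM, and *Gp1bb* at or under 3 counts in every liver. The 7 T and B cell markers were all below the filter, with sums of 1.43 to 2.7 and 1.41 to 6.61 CPM. Of the 5 erythroid markers *Alas2* was tested and was lower, and *Hba-a1*, *Hbb-b1* and *Hbb-b2* were at 0 in every liver. The cause of these zeros was not tested, and they are not read as absence of erythroid RNA. *Lyve1*, *Stab1*, *Mrc1* and *Fcgr2b* are known in some macrophages too.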

How the data were processed

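RNA of 10 mouse livers (5 wild-type, 5 Ndrg3 LKO) was sequenced with a stranded mRNA kit. The authors mapped reads to mm9 and used STAR to count them on genes; the deposited raw counts are whole numbers without normalization, although the deposit names them CPM. The submitters' processing notes name bcl2fastq, Trim Galore 0.6.4, STAR 2.7.3a and Cufflinks 2.2.1. The annotation and the strand setting of the counting are not given in the sources used here.

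The 10 members were read by symbol. Members and gene lists were chosen with earlier results of these data known. The 11208 genes reaching 1 CPM in 5 or more livers entered edgeR 4.0.16 (R 4.3.3; quasi-likelihood test, TMM, Benjamini-Hochberg adjustment over all genes tested, threshold 0.05). Each SE was obtained by dividing the absolute log2 fold change by √F. Single genes also had an exact permutation test of mean log2(CPM + 1). Alternatives were median-of-ratios factors, library size alone, DESeq2 1.42.0, limma 3.58.1 on log2(CPM + 1), no filter, a mean CPM of at least 5, the replicate number as a block, and each liver left out in turn (1 CPM in at least 4 livers).

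Named genes are all members, *Ndrg3*, all genes of the VEGF and angiopoietin and the angiocrine lists, of each other endothelial list the 3 with the largest absolute log2 fold change among those called with a mean of at least 1 CPM in both groups, the 5 genes most like the mean of the sinusoidal members, and the genes at the extremes of other lists. *Maf*, *Cldn5*, *Arhgef15*, *Cav1*, *Col4a1*, *Esm1*, *Apln* and marker genes beside a count were chosen for mention once values were known. Coordinates and exon lengths are from the GENCODE annotation of NCBIM37 (mm9), promoters from RefSeq. Both groups carry replicate numbers 1 to 5 in the labels. Once group means were removed, livers sharing a number correlated at -0.216 on average, and 0 of 5 wild-type livers were closest to their own number, so the numbers were not taken to pair the livers. All 20 within-group pairs of libraries were further apart than sampling noise allows (chi-square per degree of freedom 27.3 to 543.7).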

Additional observations from a re-analysis of the deposited data

Results flagged for a closer look

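In 92 groups of 5 livers, over the members, *Ndrg3* and the other genes named by rule, the highest or lowest liver was compared with the rest by Dixon's ratio (above 0.71 for 5 values), and 4 groups had a liver apart. Chance gives about 1 in 20 groups. *Vwf* in wild-type replicate 1 was at 7.03 CPM, with the other wild-type livers at 1.95 to 3.27 CPM. The remaining 3 were all in LKO replicate 5. *Angpt2*, the angiopoietin that endothelium releases in sprouting vessels, was at 6.14 CPM there and at 0.257 to 0.534 CPM in the other LKO livers. *Dll4* was at 5.95 CPM, with the others at 1.80 to 2.67 CPM, and *Figf* at 1.13 CPM, with the others at 0.20 to 0.374 CPM.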

How the results depend on the processing

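Members were above 0 in each of the 18 settings that tested them (*Vwf* and *Cd34* were not tested at a mean CPM of at least 5), and 8 members were called higher, with 7 to 10 over the alternatives and 0 lower in each. Of 168 values of single members under the alternatives, 158 kept direction and side of the threshold, 6 (all *Stab1*) lost the call, 4 gained one (*Vwf* 3, *Stab2* 1) and none reversed. Library size alone gave 5834 genes higher and 1005 lower, against 2865 and 2578. The gap between sinusoidal and general members was 0.295 with limma on log2(CPM + 1), and -0.136 to 0.105 with single livers left out, the lowest without wild-type replicate 1. Values that reversed were those of *Vegfa*, -0.0029 without the filter and -0.0879 to 0.18 with single livers left out, and of *Vegfc*, 0.49 with library size alone and -0.152 to 0.0624 with single livers left out; the cause was not tested. With the replicate block, 8 members stayed higher, 2215 genes were higher and 2197 lower, and of the members and the other genes named by rule that were refitted, *Bmp6* (0.0900), *Hgf* (0.0849), *Efnb2* (0.0631) and *Tmem129* (0.0616) lost their calls, given as adjusted p; the gap was -0.0826. Of the genes most like the sinusoidal members, *Zfp606* and *Zfp868* lost their calls and *Btbd3* gained one with library size alone. Among the members *Cd34* had the fewest counts, 11 to 32 in wild-type livers.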

Other observations

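Besides *Angpt2*, *Dll4* and *Figf*, other endothelial genes of the lists were high in LKO replicate 5, and were picked once their values were known. *Esm1*, an endothelial proteoglycan, was at 12.2 CPM in LKO replicate 5, at 0.114 to 0.898 CPM in the other 4 LKO livers and at 0.0460 to 0.446 CPM in wild-type livers. *Apln*, the peptide ligand apelin, was at 1.37 CPM (29 counts) in LKO replicate 5, with at most 1 count in every other liver. In the same liver *Clec4g* and *Wnt2* were at 20.5 and 1.32 CPM, within or below the wild-type livers, while *Stab1* was at 35.1 CPM, the highest of all 10 livers. With 1 such liver no test is possible.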
